A study of Homo sapiens with 4 samples.

Results

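The group described here holds 7 human genes, BRCA1, BARD1, BRCA2, PALB2 and RAD54L of homologous recombination and MSH6 and PMS2 of mismatch repair, taken by name out of 20033 protein-coding genes. Chromatin of 22RV1, a human prostate cancer cell line, was profiled in libraries labelled CUT&Tag, an assay in which a tagging enzyme is directed to antibody-bound chromatin, and the series title places the work on phosphorylated RB and the transcription factor ETS1. The 4 libraries came from cells given the CDK4/6 inhibitor PD0332991 (palbociclib), from the inhibitor's own control, from cells given an siRNA against RB and from the control of that knockdown. Each of these groups held 1 library, so every difference below rests on a single pair of libraries and only its counting error is known. The labels' protocol describes fixed and sonicated chromatin with an input sample, as in chromatin immunoprecipitation, so which assay was run and what served as background cannot be told apart here. The sources used here do not name the antibody target, the dose, the duration of treatment or the vehicle. In each library a gene counted as marked when a listed summit, the highest point of a deposited interval, lay within 1000 bp of either end of the gene. No cut on the deposited q-value was applied. The only gene-end summit of the 7 genes with a deposited −log10 q above 0 was that of RAD54L in the inhibitor control, at 1.07.

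Homologous recombination repairs double-strand breaks with an intact sister copy of the DNA. BRCA1 and its partner BARD1 form a ubiquitin ligase that helps prepare broken ends, PALB2 bridges BRCA1 to BRCA2, BRCA2 prepares single-stranded DNA for strand exchange, and the translocase RAD54L acts during strand invasion. In mismatch repair, MSH6 belongs to a complex that recognises mismatched bases, and PMS2 belongs to a complex that cuts the strand carrying the error. Many of these genes are transcribed most in S phase, under E2F factors that RB restrains, and loss of homologous recombination or mismatch repair is a recognised feature of a share of prostate cancers.

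BARD1 and RAD54L had a summit just upstream of their start site in all 4 libraries, and their RefSeq promoter windows (GRCh38.p14, 250 bases before to 50 after the start site) are shown because they lie beside the recurrent summits. The RAD54L summit under the inhibitor and the BARD1 summit in the siRNA control lie inside these windows, and the other 6 of the 8 summits lie just upstream of them. Capitals mark the GC box GGGCGG on either strand, so that CCGCCC is the same string read from the other strand. BARD1 lies on the minus strand at chr2:214809634-214809933 and RAD54L on the plus strand at chr1:46247438-46247737.
BARD1: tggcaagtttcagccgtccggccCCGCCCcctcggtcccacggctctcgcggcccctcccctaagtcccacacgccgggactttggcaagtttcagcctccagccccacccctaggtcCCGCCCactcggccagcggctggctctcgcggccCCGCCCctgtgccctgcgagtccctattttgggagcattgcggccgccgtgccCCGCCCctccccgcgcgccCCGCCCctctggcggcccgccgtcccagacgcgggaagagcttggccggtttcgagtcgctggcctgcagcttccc
RAD54L: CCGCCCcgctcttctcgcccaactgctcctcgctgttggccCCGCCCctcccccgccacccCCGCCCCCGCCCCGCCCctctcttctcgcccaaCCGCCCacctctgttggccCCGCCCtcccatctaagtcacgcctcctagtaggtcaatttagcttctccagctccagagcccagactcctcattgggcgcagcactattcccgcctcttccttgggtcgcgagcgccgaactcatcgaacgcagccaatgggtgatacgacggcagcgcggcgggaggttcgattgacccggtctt

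BRCA2, which had no summit at its ends in any library, and PALB2, which had 1 in a single library, are shown for contrast. Here capitals mark the ETS strings CCGGAAG and GGAAGT on either strand, chosen because the series concerns ETS1. The windows are chr13:32315258-32315557 on the plus strand for BRCA2 and chr16:23641261-23641560 on the minus strand for PALB2.
BRCA2: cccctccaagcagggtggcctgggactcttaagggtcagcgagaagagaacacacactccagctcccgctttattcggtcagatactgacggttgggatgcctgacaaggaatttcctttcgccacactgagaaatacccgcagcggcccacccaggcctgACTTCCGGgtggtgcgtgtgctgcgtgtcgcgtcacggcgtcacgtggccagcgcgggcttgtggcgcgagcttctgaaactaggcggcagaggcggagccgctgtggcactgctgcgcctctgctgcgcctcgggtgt
PALB2: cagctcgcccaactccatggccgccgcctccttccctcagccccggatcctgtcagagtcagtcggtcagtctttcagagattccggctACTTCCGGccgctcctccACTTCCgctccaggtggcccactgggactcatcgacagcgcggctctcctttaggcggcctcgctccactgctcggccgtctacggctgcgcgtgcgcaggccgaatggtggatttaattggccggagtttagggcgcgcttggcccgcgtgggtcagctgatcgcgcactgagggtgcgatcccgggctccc

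The window of BARD1 held 5 GC boxes and the printed window of RAD54L 7, while the RAD54L window at its second start site, position 46247763, held 2. At least 1 GC box was present in 56.3% of all windows, at least 5 were present in 6.78% of 22077 promoter windows of coding genes of the same length, and at least 7 in 1.97%. BRCA2 and PALB2 had no GC box in these windows. BRCA1, which had no gene-end summit in any library, had 2 at its far 5′ end and 0 at its other start site. PMS2 had 2 GC boxes. The windows of BARD1 and RAD54L held neither ETS string, whereas BRCA2 held both strings in a single overlapping run and PALB2 held GGAAGT at 2 places, 1 of them overlapping CCGGAAG. BRCA1 held GGAAGT at its other start site. At least 1 of these ETS strings was present in 29.8% of all windows. RAD54L also held TTCCCGCC, an E2F-type string found in 3.97% of windows, beginning 49 bases upstream of the start site, and CCAAT, found in 34.7%, at 2 places. The first window of MSH6 held 5 GC boxes, TTCCCGCC and CCAAT, and that of PMS2 held GGAAGT as well as CCAAT and the cAMP response string TGACGTCA, which 2.25% of windows contain. No window of the 7 genes held the E2F strings TTTCGCGC or TTTGGCGC, the cell cycle string TTTGAA or the NRF1-type string GCATGCGC. The GC content was 73.7% at BARD1, 66.7% in the printed window of RAD54L, 63.3% at BRCA2 and 66.3% at PALB2, beside a median of 62.3% over all windows. A matching string is a description of the sequence and does not show a bound site.

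Treatment fragments recovered from the lists numbered 1909343 under the inhibitor, 2458767 in its control, 2423302 after RB siRNA and 3479652 in the siRNA control. Levels below are fragments at a summit per 1000000 recovered in the library (FPM), and the 95% intervals on them are exact Poisson intervals that cover counting error only. The intervals of the lists tile almost the whole genome (3.03 to 3.06 Gb covered), with median widths of 557 kb under the inhibitor, 189 kb in its control, 718 kb after RB siRNA and 180 kb in the siRNA control. Each interval lists its highest summit only, so a lower peak at a gene is hidden by a higher one within the same interval. For such a gene the listed summit gives an upper limit on the fragments at its ends, not a level. Of 11 prostate luminal markers, STEAP2 alone had a gene-end summit, at 3.67 FPM under the inhibitor, and KLK3 was among those with none in any library. Of 15 markers of other cell types, ACTA2 alone had such a summit, at 0.862 FPM in the siRNA control. The lists therefore do not identify the labelled tissue by its markers.

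Of the 7 genes, 2 had a gene-end summit under the inhibitor, 3 in the inhibitor control, 2 after RB siRNA and 4 in the siRNA control. Among all protein-coding genes the share with such a summit was 7.73% under the inhibitor, 16.8% in its control, 6.63% after RB siRNA and 17.3% in the siRNA control. The genes were chosen with earlier results of these lists known, so their shares are not independent evidence that repair genes are marked more often than others. A gene-end summit in all 4 libraries was present at 489 coding genes, 2.44% of them, which include BARD1 and RAD54L. PALB2 was listed in the inhibitor control alone, and MSH6 and PMS2 in the siRNA control alone. BRCA1 and BRCA2 were listed in none. Among the summits counted, the one farthest from a gene end was that of PMS2, at 624 bp, and the nearest left out lay 19.4 kb from an end of BRCA1.

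**Figure D1:**
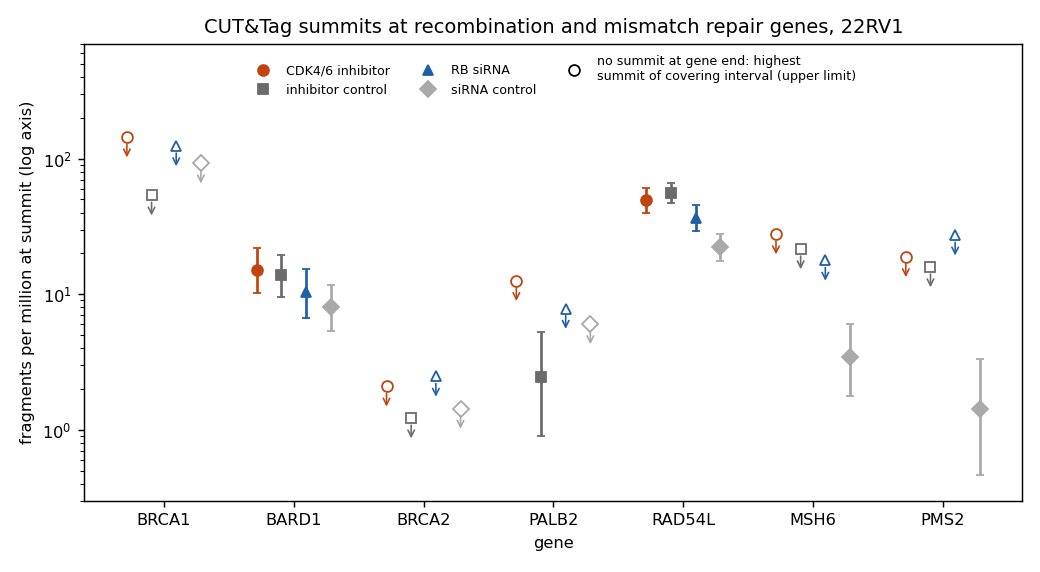
Level in FPM at the listed summit (log axis) for the 7 genes in the 4 libraries, with exact 95% Poisson intervals for counting error. Filled points are summits within 1000 bp of a gene end, and open points with arrows are the highest summit of the interval over the 5′ end, an upper limit. RAD54L was the highest filled point in every library, BARD1 was second in every library, and the open points of BRCA2 lay between 1.22 and 2.48.

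RAD54L (chr1:46247688-46278473, plus strand) carried the highest gene-end summit of the group. Its summit had 94 fragments under the inhibitor, or 49.2 FPM (95% interval 39.8 to 60.2), and 138 in the inhibitor control, or 56.1 FPM (47.2 to 66.3). After RB siRNA it had 89 fragments, or 36.7 FPM (29.5 to 45.2), and in the siRNA control 78, or 22.4 FPM (17.7 to 28.0). The intervals of the inhibitor and its control overlapped, and those of RB siRNA and its control did not. Among all gene-end summits of a library the RAD54L summit ranked at percentile 93.8 under the inhibitor, 97.3 in its control, 92.1 after RB siRNA and 95.4 in the siRNA control.

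The RAD54L summits lay 240 bp upstream of the start site under the inhibitor, 311 bp in its control, 308 bp after RB siRNA and 314 bp in the siRNA control. No other coding gene shared this end. The covering intervals were 1294 kb wide under the inhibitor, 184 kb in its control, 1081 kb after RB siRNA and 575 kb in the siRNA control. RAD54L was thus the highest point of over a megabase in the treated libraries.

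BARD1 (chr2:214725646-214809683, minus strand) showed a lower signal. It had 29 fragments under the inhibitor, or 15.2 FPM (10.2 to 21.8), and 34 in the inhibitor control, or 13.8 FPM (9.58 to 19.3). It had 25 fragments after RB siRNA, or 10.3 FPM (6.68 to 15.2), and 28 in the siRNA control, or 8.05 FPM (5.35 to 11.6). The counting intervals overlapped between each treated library and its control. Its percentiles among gene-end summits were 71.2 under the inhibitor, 80.7 in its control, 61.2 after RB siRNA and 77.4 in the siRNA control. The summit lay 274 bp upstream of the BARD1 start site under the inhibitor and in its control, at the same base, 341 bp upstream after RB siRNA and 185 bp upstream in the siRNA control. The long noncoding RNA gene SNHG31 begins 546 bp from this end, so these summits lie between both genes.

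Within each library the RAD54L summit was higher than the BARD1 summit. The ratio was 3.24 under the inhibitor (exact interval 2.12 to 5.10), 4.06 in its control (2.77 to 6.10), 3.56 after RB siRNA (2.26 to 5.79) and 2.79 in the siRNA control (1.79 to 4.46). These 4 intervals overlapped one another. The deposited −log10 p at RAD54L was 3.19 under the inhibitor, 5.52 in its control, 3.24 after RB siRNA and 2.63 in the siRNA control, and the values under the inhibitor and after RB siRNA recur at BARD1 in the same libraries despite its lower level. At BARD1 it was 2.61 in the inhibitor control, and 1.47 for the siRNA control. The deposited p thus ranked RAD54L above BARD1 in the control libraries and tied them in the treated ones. In the siRNA control the recovered background was 0.0349 at BARD1 and 0.00234 at RAD54L. RAD54L had the same −log10 p there, 2.63, as MSH6 with 12 fragments. The ranking in that library thus followed the background and not the level. Across libraries, RAD54L and BARD1 were lowest in the siRNA control, with RAD54L highest in the inhibitor control and BARD1 highest under the inhibitor. Low levels in the siRNA control were not particular to these genes. Over all shared summits the median log2 ratio to it was 0.59 for the inhibitor control and 0.45 for RB siRNA.

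**Figure D2:**
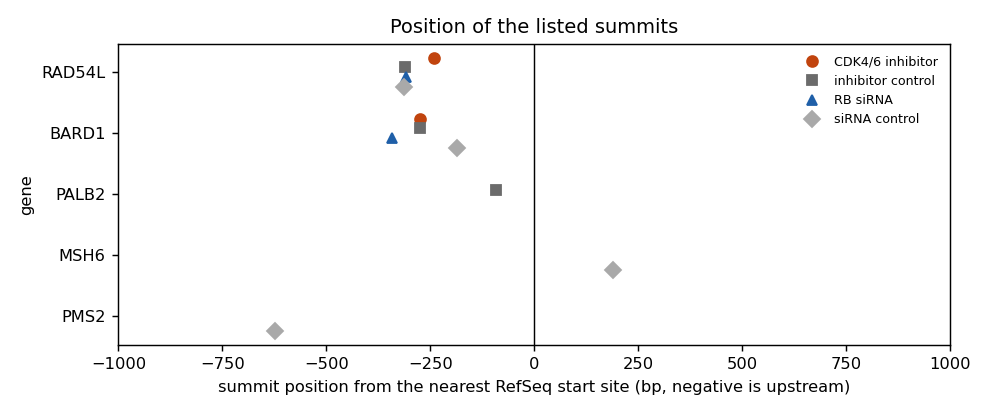
Position of each listed summit from the nearest RefSeq start site of its gene, in bp, with negative values upstream, for the 5 genes that had a gene-end summit in at least 1 library. The RAD54L summits lay 240 to 314 bp upstream and the BARD1 summits 185 to 341 bp upstream, while the MSH6 summit lay 190 bp downstream.

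The single-library members had far fewer fragments. PALB2 (chr16:23603165-23641310, minus strand) had 6 fragments in the inhibitor control, or 2.44 FPM (0.896 to 5.31), 92 bp upstream of its own start site. The end of DCTN5, a dynactin subunit gene, lies 156 bp from that of PALB2, and the summit between them cannot be assigned to either gene. In the other libraries the interval over PALB2 had its summit at EARS2 and UBFD1, about 46 kb away. That summit had 12.6 FPM under the inhibitor, 7.84 after RB siRNA and 6.04 in the siRNA control, which are upper limits at PALB2. In the inhibitor control the EARS2 and UBFD1 summit was also present, with 10.2 FPM, but in a different interval from PALB2.

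MSH6 (chr2:47783145-47810101, plus strand) had 12 fragments in the siRNA control, or 3.45 FPM (1.78 to 6.02), 190 bp downstream of its first start site and inside the gene. Elsewhere the interval over MSH6 reached as far as FOXN2, a forkhead factor gene 504 kb from its nearest end, whose summit had 27.8 FPM under the inhibitor, 21.6 in its control and 17.7 after RB siRNA. FOXN2 had 10.1 FPM in the siRNA control, in an interval of its own. MSH6 was thus listed in the library where the higher neighbour fell outside its interval, as was PALB2.

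PMS2 (chr7:5970925-6009106, minus strand) had 5 fragments in the siRNA control, or 1.44 FPM (0.467 to 3.35). The summit lay 624 bp upstream of its start site, inside AIMP2, a scaffold gene of the aminoacyl-tRNA synthetase complex whose end lies 166 bp from that of PMS2, so it cannot be assigned to either gene. The 16.7 kb interval with this summit did not reach the PMS2 start site, which lay in a gap of that list. Over the 5′ end of PMS2 the listed summits lay elsewhere, with 18.9 FPM under the inhibitor and 15.9 in its control, both inside USP42, and 27.2 after RB siRNA, inside GRID2IP. PMS2 has near-identical pseudogene copies on the same chromosome, and how reads that align to several places were treated is not stated in the labels or the lists, so its values are uncertain.

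BRCA2 (chr13:32315077-32400268, plus strand) was the member with the lowest limits. The interval over its start site, at position 32315508 of chromosome 13, had its highest point at 4 fragments under the inhibitor (2.09 FPM) and 3 in the inhibitor control (1.22 FPM), both at FRY, 284 kb away. It had 6 fragments after RB siRNA (2.48 FPM), 584 kb away, and 5 in the siRNA control (1.44 FPM), 61.0 kb away. No position in these intervals, the BRCA2 promoter included, was therefore higher than 6 fragments. Over the coding genes with a known strand whose 5′ end was covered, the limit was at or below that of BRCA2 for 7.29% under the inhibitor, 10.4% in its control, 8.32% after RB siRNA and 16.5% in the siRNA control. In all 4 libraries together this held for 141 of 14514 genes, 0.972%. A level of 0 and a level of a few fragments cannot be told apart at this depth. The ends of BRCA2 and of its neighbour ZAR1L lie 286 bp apart.

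For BRCA1 (chr17:43044295-43170327, minus strand) the lists gave no level. The interval over its 5′ end peaked 81.4 kb away under the inhibitor with 144 FPM, 62.9 kb away in its control with 53.7 FPM, 129.5 kb away after RB siRNA with 124 FPM and 81.4 kb away in the siRNA control with 92.5 FPM. In 2 libraries a further interval lay over the 3′ part of BRCA1, with its summit at RND2 and 11.0 FPM in the inhibitor control and at CCR10 and 33.0 FPM after RB siRNA. The summits of the 5′ intervals lay at no coding gene end, and they are neither levels at BRCA1 nor useful limits. These distances are from the far 5′ end. RefSeq gives BRCA1 a second start site at position 43125364 of chromosome 17, and no summit lay there either. From that site the same summits lay 126, 108, 174 and 126 kb away, in the order of libraries above. The region holds the partial copy BRCA1P1, 373 bp from the far 5′ end, and the ends of NBR1 and 2 long noncoding RNA genes.

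A coding neighbour within 1000 bp of the 5′ end was present for 4 of the 7 genes (BRCA1, BRCA2, PALB2 and PMS2), beside 19.8% of 15842 coding genes with a known strand. BRCA1 was counted at its far 5′ end only. Coding genes with such a neighbour had a gene-end summit in 12.7% of cases under the inhibitor, against 6.93% of those without. In the inhibitor control the shares were 27.7% and 15.2%, after RB siRNA 11.1% and 5.86%, and in the siRNA control 26.2% and 16.0%. BARD1 and RAD54L, the members listed in all 4 libraries, belong to the genes without a coding neighbour there.

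Between the inhibitor and its control, neither shared member stood out from the other summits. The log2 ratio of the inhibitor over its control was -0.19 at RAD54L (exact interval -0.58 to 0.20) and 0.14 at BARD1 (-0.63 to 0.89). The 887 summits shared by these libraries at a geometric mean of at least 5 FPM had a median log2 ratio of 0.20, and 21.8% of them lay at least 1.5-fold from it. The called shares were 12.4% above the median and 9.36% below it. The distance from this median was -0.39 at RAD54L and -0.06 at BARD1 on the log2 scale, and neither passed 1.5-fold. On the authors' fold, RAD54L had 1.47 under the inhibitor and 2.93 in its control. That is a log2 distance of -0.64 from the median on this fold, which did pass 1.5-fold. The log2 ratio of BARD1 on this fold was -0.36, the opposite sign to its FPM ratio. Over all shared summits the median log2 ratio on this fold was also -0.36. The FPM ratio of BARD1 also changed sign, to -0.23, without scaling to the recovered totals.

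After RB siRNA, RAD54L had more FPM than in the siRNA control, but a lower authors' fold, 1.28 after RB siRNA and 1.81 in the siRNA control. On that fold the median log2 ratio over all shared summits was -0.33, with RAD54L at -0.16 and BARD1 at 0.12 from it. The log2 FPM ratio of RAD54L was 0.71 (0.26 to 1.17), a 1.64-fold difference whose counting interval excluded 0. At BARD1 the log2 FPM ratio was 0.36 (-0.48 to 1.19), and it was -0.21 on the authors' fold and -0.16 without scaling. The median log2 FPM ratio over the 749 shared summits was 0.45, and 16.2% of them lay at least 1.5-fold from it, 6.01% above and 10.1% below. The distance from this median was 0.26 at RAD54L and -0.09 at BARD1, so neither passed 1.5-fold and neither interval excluded the median.

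The only shared member that passed 1.5-fold did so between the controls. RAD54L had 56.1 FPM in the inhibitor control, against 22.4 FPM for the siRNA control, a log2 ratio of 1.32 (0.91 to 1.74), which lay 0.73 above the median of 0.59 over 1191 shared summits. In this comparison 25.4% of shared summits lay at least 1.5-fold from the median, 10.1% above it and 15.4% below it, and RAD54L was among those above. On the authors' fold the same difference lay 0.55 above its median and no longer passed 1.5-fold. BARD1 had 13.8 FPM in the inhibitor control, against 8.05 FPM for the siRNA control, a log2 ratio of 0.78 (0.02 to 1.56) that lay 0.19 above the median. The treated comparisons each share a control with this one, and whether the controls differ in handling or in the cells was not tested.

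**Figure D3:**
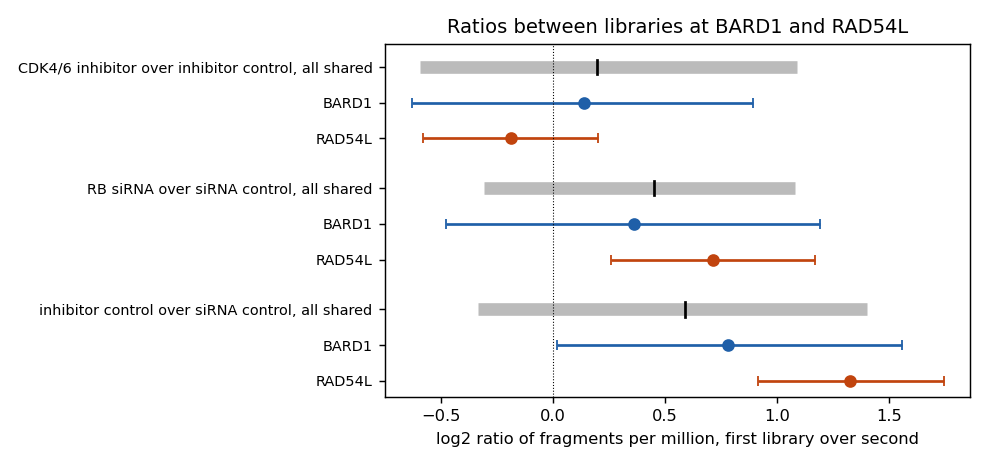
Log2 ratios of FPM at BARD1 and RAD54L for 3 pairs of libraries, with exact 95% intervals for counting error. Grey bars span the 5th to 95th percentile of all summits shared by the pair and black ticks mark their median (0.20, 0.45 and 0.59 from top to bottom). The RAD54L point of the last pair, at 1.32, is the only one at least 1.5-fold from its median.

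The profile of BARD1 over the 4 libraries was most like those of TTYH3 (root mean square difference of centred log2 FPM 0.015) and GTPBP6 (0.021), among 262 gene-end summits with at least 5 FPM in each library. The median difference of these candidates from BARD1 was 0.23. TTYH3 had 35.6 FPM under the inhibitor, 33.4 in its control, 24.8 after RB siRNA and 19.3 in the siRNA control. For RAD54L the most like profiles lay at CRYZL1 and ITSN1 (0.021), at MEPCE and ZCWPW1 (0.049) and at KIFC1 and PHF1 (0.085), with a median of 0.31 over 258 candidates. MEPCE and ZCWPW1 had 51.9, 54.1, 35.9 and 22.4 FPM in the same order of libraries, close to RAD54L also in height. These likenesses rest on 4 libraries and are a description.

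The other genes of these pathways were read from lists of textbook members. Of 36 further homologous recombination genes, 4 had a gene-end summit under the inhibitor, 12 in its control, 4 after RB siRNA and 15 in the siRNA control. Of 11 further mismatch repair genes, 2 did under the inhibitor, 5 in its control, 0 after RB siRNA and 2 in the siRNA control. The shares over all coding genes, given above, were likewise lower in the treated libraries, whose intervals were wider. A summit that is missing and one hidden in a wider interval cannot be told apart.

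ABRAXAS1, which joins BRCA1 and BARD1 in the BRCA1-A complex at damaged chromatin, was the 1 further recombination gene with a summit in all 4 libraries. It had 14.1 FPM under the inhibitor, 15.0 in its control, 14.0 after RB siRNA and 12.9 in the siRNA control, a range narrower than that of BARD1. ATM, the kinase that signals double-strand breaks and whose end is shared with NPAT, had 6.91 FPM in the inhibitor control, 7.43 after RB siRNA and 7.47 in the siRNA control. Between the controls its log2 distance from the median of 0.59 was -0.70, which passed 1.5-fold. Its counting interval (-1.09 to 0.82) held that median. RMI1, of the complex that dissolves recombination intermediates, had 12.6 FPM under the inhibitor and 4.47 in its control, and 7.47 in the siRNA control, at an end shared with HNRNPK. The log2 ratio of the inhibitor over its control at RMI1 was 1.49 (0.41 to 2.67), 1.29 above the median. RMI1 was the 1 of 5 further repair genes shared by these libraries that lay at least 1.5-fold from the median, beside 21.8% of all shared summits. Between the controls RMI1 was called in the other direction. Its log2 distance from the median was -1.33 for the inhibitor control over the siRNA control. Both RMI1 calls share its inhibitor control value, which rests on 11 fragments, so they are not separate results. Of 10 further repair genes shared by the controls, 2 lay at least 1.5-fold above the median and 2 below. The shares of all shared summits were 10.1% and 15.4%.

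Among genes of strand exchange, SWSAP1 of the Shu complex had 33.8 FPM in the inhibitor control, against 19.5 for the siRNA control. The recombination gene XRCC2 had 16.7 and 6.32 in the same libraries. The median log2 ratio between these controls was 0.59. SWSAP1 lay 0.20 above it and did not pass 1.5-fold, while XRCC2 lay 0.81 above it and did. The meiotic recombinase gene DMC1 had 20.6 FPM after RB siRNA and 13.2 in the siRNA control (log2 ratio 0.64, 0.04 to 1.25), which lay 0.19 from the median of 0.45 for these libraries and did not pass 1.5-fold. SLX1A, a nuclease subunit gene with a near-identical copy, had 23.6 FPM in the inhibitor control, against 17.8 for the siRNA control. That is a log2 distance of -0.18 from the median between the controls. The reads of SLX1A cannot be told apart from those of the copy here. In mismatch repair, PCNA, the sliding clamp that also serves replication, had 14.7 FPM under the inhibitor and 15.9 in its control, at an end shared with CDS2.

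**Figure D4:**
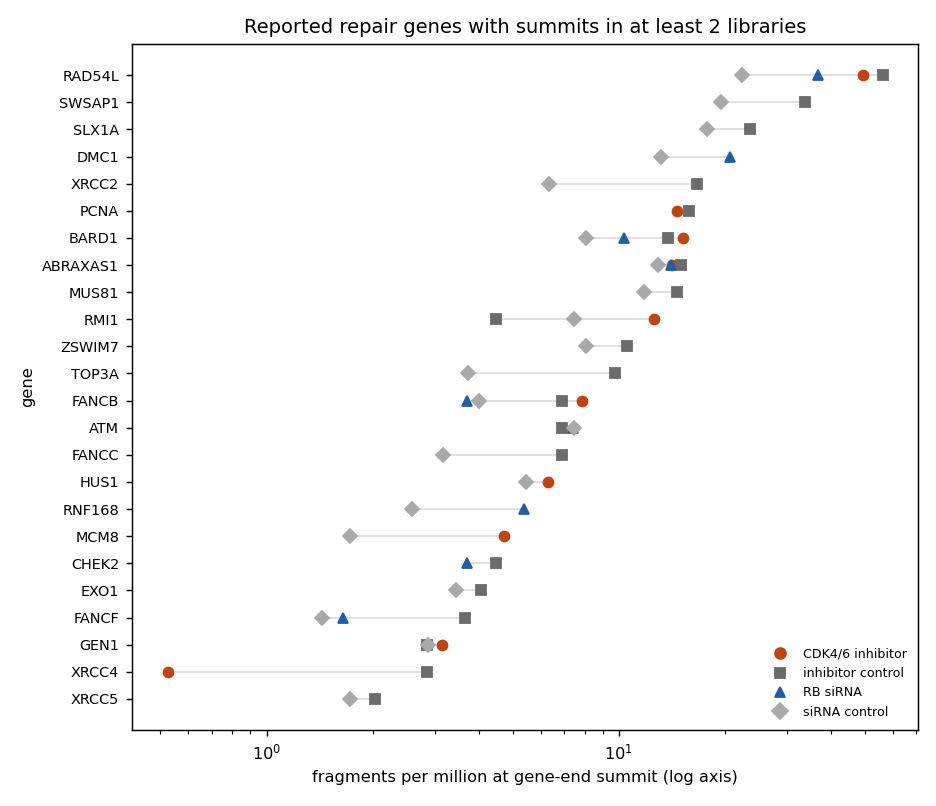
Level in FPM at the gene-end summit (log axis) for BARD1, RAD54L and other repair genes reported here with such a summit in at least 2 libraries, ordered by their highest value. RAD54L had the highest value of the genes shown in each library, from 22.4 to 56.1, and a missing point means that no summit was listed at that gene in that library.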

How the data were processed

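Interval lists of 4 CUT&Tag libraries of 22RV1 cells were used, 1 per group. Per the submitters' processing notes, bcl2fastq 2.17, Trimmomatic 0.33, Bowtie2 (version given as 2) and MACS2 2.1.0 were used with hg38, with no order or settings. The deposited score equals 10 times the deposited −log10 p, cut to a whole number, and the deposited fold compares treatment with background at the summit. The deposited −log10 q was the basis of 1 alternative.

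Fold and −log10 p of each summit were solved for the background and the treatment fragments, with the MACS2 pseudocount of 1. The large window (10000 bp) and the effective genome (2.7 Gb) were assumed. The commonest local background was taken as 2 reads in that window. The fragment totals and FPM depend on these assumptions. At the genome-wide background, 100% of summits in each list gave whole fragments within 0.05. Lists simulated from the recovered counts and backgrounds under the same assumptions returned 100% of the counts in each library. That checks the solving step only and cannot test the assumptions. Shared summits were mutual nearest neighbours within 250 bp. Ratios carry exact conditional binomial 95% intervals. A ratio was called at 1.5-fold from the median of its pair. Genes and promoters came from RefSeq (GRCh38.p14), and a promoter window was found for all 7 genes. The 7 genes and all lists were chosen with earlier results of these data known. All 7 genes were named, and of the other repair lists genes with summits in at least 2 libraries. STEAP2, ACTA2, KLK3 and XRCC6 fall outside this rule and were named after their values were seen. Some genes that this rule would name are not reported here. Python 3.11.15, scipy 1.17.1 and pandas 2.3.3 were used. Intervals cover counting error only, and PCR copies are not independent molecules. Alternatives covered the window, minimum level, q, contigs, scaling, matching distance and background.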

Additional observations from a re-analysis of the deposited data

How the results depend on the processing

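Of 67 alternative values, 53 stayed within 1.5 times the count or within the counting interval of the reported value, and 14 moved. The only called member ratio, RAD54L between the controls, kept its sign but did not pass 1.5-fold on the authors' fold. Ratios that were not called did change sign, at RAD54L for RB siRNA over its control and at BARD1 in the treated comparisons. At a −log10 q of at least 2, 0 of the 7 genes had a gene-end summit under the inhibitor, in its control, after RB siRNA or in the siRNA control, beside 0.0499%, 0.434%, 0.025% and 0.18% of all coding genes. With summits of at least 5 FPM, 2 of the 7 genes remained in the siRNA control, and 13, 4 and 12 of the other repair genes in the inhibitor control, after RB siRNA and in the siRNA control, beside 8.8%, 4.41% and 6.98% of all coding genes. By the authors' fold, the log2 ratio at RAD54L was -0.995 for the inhibitor over its control, -0.50 for RB siRNA over its control and 0.70 between the controls. The fold carries a pseudocount of 1, and 1 FPM adds 0.00959 to it under the inhibitor, 0.0346 in its control, 0.00764 after RB siRNA and 0.0362 in the siRNA control, so its ratios are lower in the treated libraries by construction.  Without scaling the RAD54L ratio was 0.19 for RB siRNA and 0.82 between the controls, and divided by the median ratio it was 0.73 between the controls. At a matching distance of 100 bp the BARD1 summits of RB siRNA and its control, 156 bp apart, were not paired and gave no value. No paired analysis was possible because each group holds 1 library. Depth limits the single-library members, which rest on 5 to 12 fragments.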

Other observations

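Of 12 Fanconi anaemia genes, 2 had a gene-end summit under the inhibitor, 3 in its control, 2 after RB siRNA and 3 in the siRNA control. Over all coding genes the shares were 7.73%, 16.8%, 6.63% and 17.3% in the same order. Every count per library in this paragraph stands beside these shares. FANCB, a subunit gene of the Fanconi core complex whose end is shared with MOSPD2, had 7.86 FPM under the inhibitor, 6.91 in its control, 3.71 after RB siRNA and 4.02 in the siRNA control, and was listed in all 4 libraries, as among the 82 further repair genes only ABRAXAS1 was besides it. Of 10 end-joining genes, 1 had a summit under the inhibitor, 5 in its control, 0 after RB siRNA and 2 in the siRNA control. The summit under the inhibitor, at XRCC4 and an end shared with TMEM167A, had 1 fragment (0.524 FPM). XRCC5, which encodes Ku80, had 2.03 FPM in the inhibitor control, against 1.72 for the siRNA control. XRCC6, which encodes Ku70 and was singled out after its values were seen, had 19.1 FPM in the inhibitor control alone, at an end shared with DESI1, which is above the 13.8 FPM of BARD1 there. Of 13 checkpoint genes, 1, 1, 2 and 2 had a summit in the same order of libraries. HUS1, of the clamp that activates ATR, had 6.28 FPM under the inhibitor, and its level for the siRNA control was 5.46. Of all 82 further repair genes, 46 had no gene-end summit in any library (56.1%), beside 72.8% of all coding genes, and 10 had one under the inhibitor (12.2%), 26 in its control (31.7%), 8 after RB siRNA (9.76%) and 24 in the siRNA control (29.3%). These lists, too, were chosen with earlier results known.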
